A study of Rattus norvegicus with 6 samples.

Results

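The genes described here were the potassium channel subunits of the rat genome, measured in rupture-prone intracranial aneurysm lesions and, in each rat, also in what remained of the circle of Willis. Members were taken as every gene whose symbol starts with Kcn, pore-forming, auxiliary and interacting subunits alike, and that had at least 20 counts summed over the 6 libraries. Of 22081 genes in the table, 94 had such a symbol and 84 reached the minimum, 15 in Kcna to Kcnd, 14 in Kcnj, 13 in Kcnk, 4 in Kcnm, 4 in Kcnn and 34 in other families. A filter on low counts (edgeR's filterByExpr) kept 74 of the 84 for testing.

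Lesions of the anterior or posterior communicating artery and the rest of the circle of Willis were taken from 3 female Sprague Dawley rats, 10 weeks old at purchase, at day 63 by the sample labels. Every rat had both ovaries removed and the left carotid, right external carotid, right pterygopalatine and left renal arteries ligated, and ate chow that held 3-aminopropionitrile at 0.12%, an inhibitor of lysyl oxidase, together with salt (NaCl) at 8%. For the day of sampling, 1 part of the study's methods names day 63 and another names an earlier day for RNA sequencing. The lesions were unruptured when taken. Both groups therefore carried the same surgery, loss of the ovaries and diet, no rat without them was measured, and each group held 3 libraries, 1 from each animal. The tissue was not sorted into cell types.

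Potassium channels let potassium leave the cell and so hold the membrane at a negative voltage. In arterial muscle this keeps voltage-gated calcium channels closed and the vessel relaxed, through voltage-gated (Kv), inward rectifier (Kir), tandem-pore and calcium-activated channels. Many of the same genes also serve neurons, and a few are known from endothelium, immune cells, glia or epithelia, so the members were grouped by the cells in which their channels are best known.

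The libraries held between 65823027 and 70705938 counts, and their TMM scaling factors, which correct for composition, lay between 0.969 and 1.028. Cell type markers differed widely between libraries. The summed level of 13 smooth muscle markers was 9427, 11053 and 4426 TPM (the authors' transcript level scaled by gene length and library) in lesions 1, 2 and 3 and 11920, 6857 and 20110 TPM in circles 1, 2 and 3, so smooth muscle marker RNA was lowest in lesion 3 and highest in circle 3. Markers of the hypothalamus and pituitary, which lie beside the circle of Willis, summed to 861 TPM in circle 3 and to 7.55 to 58.4 TPM in the other libraries, and choroid plexus markers to 13111 TPM in lesion 2 and to 48.3 to 243 TPM elsewhere. Oligodendrocyte markers summed to 4162 TPM in lesion 2 against 334 to 605 TPM in the others, and macrophage markers to 1628 and 2798 TPM in lesions 2 and 3 against 605 to 877 TPM in the others. In whole tissue, fewer cells of a type and less RNA per cell cannot be told apart.

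Across the 74 members tested, none differed between lesion and circle of Willis at an adjusted p under 0.05 in edgeR with the animal as a block, where 0% of all 15367 genes tested did. The lowest adjusted p of a member was 0.174, for Kcnf1. At an unadjusted p under 0.05, 5 members were higher in the lesions (6.76%, against 8.63% of all genes). On the same terms 12 members were lower (16.2%, against 12% of all genes). Both counts changed with the animals that entered. The share of all genes was not taken with an animal left out, so the changes cannot be set beside those of all genes. Without animal 1 there were 7 higher and 19 lower, without animal 2 there were 1 and 8, and without animal 3 there were 3 and 4. DESeq2 called 3 members higher (4.05%, against 5.47% of all genes) and 10 lower (13.5%, against 6.44%) at an adjusted p under 0.05.

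A ratio of lesion to circle within each animal gave a second view. Over 1.5-fold in the same direction in all 3 animals, 3 of the 74 members were higher (4.05%, against 2.75% of all genes) and 9 were lower (12.2%, against 5.51%). The 3 higher were Kcna6, Kcnv2 and Kcne3, and the lower ones included Kcna5, Kcnc4, Kcnf1, Kcnj2, Kcnj13 and Kcne4. Among the 10 members left out of the tests, Kcnb2, Kcnj3 and Kcnk9 also met this rule on the lower side. The 3 values of the lesions lay wholly above the 3 circle values in 5 members (6.76%, against 10.3% of all genes) and wholly below in 8 (10.8%, against 11.6%), shares near or under the background. With 1 animal left out, members over 1.5-fold in both remaining animals were counted over all 84, those not tested included. There were 10 higher and 28 lower without animal 1, 3 and 17 without animal 2, and 10 and 14 without animal 3. In all 3 animals there were 3 and 12 of the 84, and no share of all genes was taken for these counts.

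The median log2 ratio of lesion to circle over the 74 members was -0.05, 0.19 and -0.89 in animals 1, 2 and 3, and the median of their means was -0.22, with 27 members above 0 and 47 below. Over all genes tested the median of the means was -0.03, and 53.2% of all genes tested had a mean below 0. By family the median of the means was -0.73 for Kcna to Kcnd (12 tested), -0.57 for Kcnj (12), 0.14 for Kcnk (11), -0.04 for Kcnm (3), -0.30 for Kcnn (4) and -0.14 for the others (32). The Kcnj median was below 0 in each animal, and the Kcna to Kcnd median was -0.58 and -1.49 in animals 1 and 3 but 0.52 in animal 2.

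**Figure D1:**
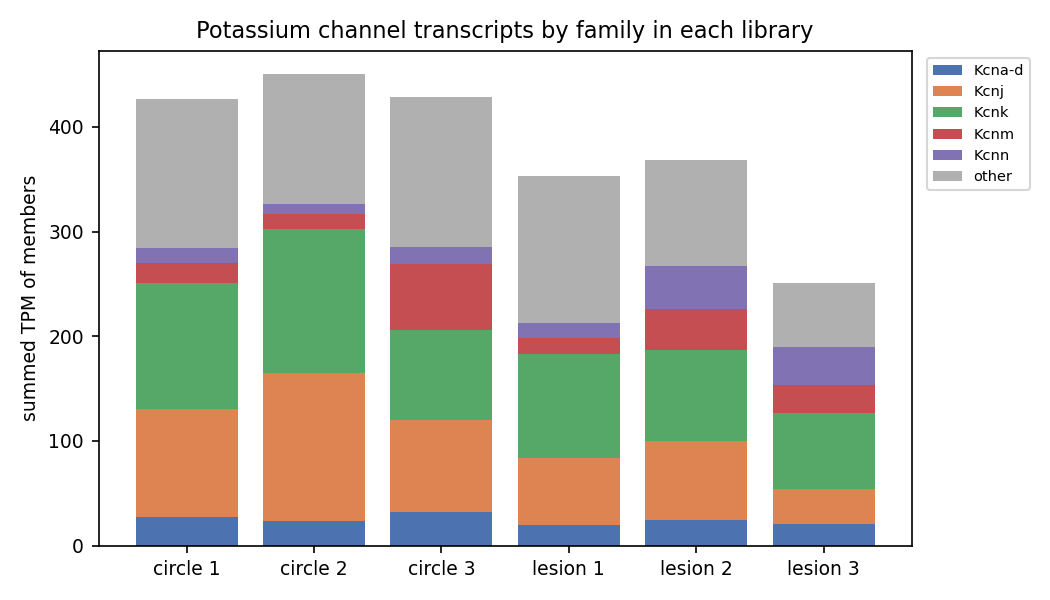
Stacked bars of the summed TPM of the members, coloured by family, 1 bar for each of the 3 circles of Willis and 3 lesions. Kcnj members summed to 64.1, 75.2 and 33.9 TPM in the lesions and 103, 141 and 87.5 TPM in the circles, and Kcnn members to 13.7, 41.5 and 35.6 TPM against 14.9, 10.2 and 16.6 TPM.

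Levels per length differed widely between members. In the circle of Willis, 41 of the 84 members reached a mean of 1 TPM, 10 reached 10 TPM and 4 reached 20 TPM. The highest were Kcnk2, the stretch-gated tandem-pore channel TREK-1, at 80.2 ± 28.4 TPM (SD, n = 3), Kcnj13, the inward rectifier Kir7.1, at 71.6 ± 25.6 TPM, and Kcnt1, the sodium-activated channel Slack, at 36.1 ± 16.4 TPM. The levels of Kcnk2 and Kcnj13 overlapped within their spread. These 3 genes held 48.7, 52.6 and 27.9% of the summed member TPM in circles 1 to 3 and 47.8, 27.5 and 22.3% in lesions 1 to 3.

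Kcnk2 was measured at 176, 115 and 65.1 CPM (the share of a library's counts taken by a gene, after TMM scaling, not corrected for length) in lesions 1, 2 and 3 and at 208, 248 and 121 CPM in circles 1, 2 and 3. Each lesion was below its own circle, while lesion 1 lay above circle 3, so the groups overlapped. The mean log2 ratio was -0.75 (SE 0.26, n = 3 animals), with an adjusted p of 0.203 in edgeR and 0.039 in DESeq2. Kcnt1 was measured at 291, 39.9 and 75.4 CPM in the lesions and 214, 121 and 86.8 CPM in the circles, with no shared direction. Kcnt1 is best known from neurons. In lesion 1, where it was highest at 67.8 TPM, the 14 neuron markers summed to 15.3 TPM, and the part of neural tissue in its level was not tested.

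Kcnj13, known from the epithelium of the choroid plexus and the retinal pigment epithelium, was measured at 32.2, 30.1 and 8.54 CPM in lesions 1 to 3 and at 58.0, 79.8 and 40.2 CPM in circles 1 to 3. All 3 lesions were below all 3 circles, with log2 ratios of -0.85, -1.40 and -2.23 and a mean of -1.49 (SE 0.40), and with an adjusted p of 0.179 in edgeR and 0.000325 in DESeq2. The choroid plexus markers were highest in lesion 2, where Kcnj13 was below all circles in CPM, and their part in its values was not tested. The gene lies at chr9:94487224-94495333 (Rnor6), inside Gigyf2 on the opposite strand, and the sources used here do not say whether strand was used in counting, so reads of the pair may not have been told apart.

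Arterial muscle channels had the lowest median of the means of the 5 classes, although in animal 3 the glial or epithelial class was slightly lower, at -1.61. All 14 arterial muscle members were tested, and their median log2 ratio was -0.25, -0.77 and -1.57 in animals 1, 2 and 3, with a median of the means of -1.08 (-0.46 without animal 3). In edgeR, 4 of the 14, Kcne4 and Kcnj2 among them, had an unadjusted p below 0.05 on the lower side and none did on the higher side. The 4 were 28.6% of the class, against 12% of all genes. Over 1.5-fold lower in all 3 animals were 5 (35.7%, against 5.51% of all genes), Kcna5 included, while Kcnj8, Kcnmb1, Kcnq1, Kcnq5 and Kcns3 had means at or above 0.

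**Figure D2:**
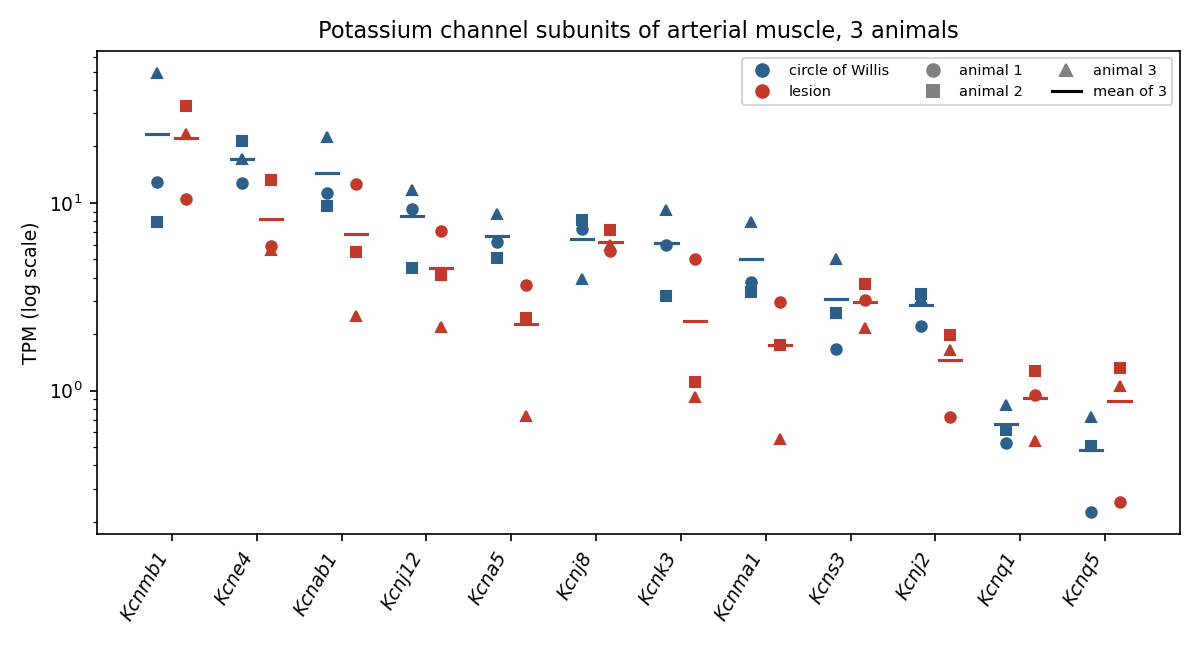
TPM of 12 arterial muscle members in each of the 3 lesions (red) and 3 circles of Willis (blue), on a log axis, with symbols for animals and short lines for means. Kcna5 was 2.27 ± 1.47 TPM in the lesions and 6.69 ± 1.88 TPM in the circles, while Kcnmb1 was 22.2 ± 11.2 and 23.4 ± 22.7 TPM.

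Kcna5, at chr4:159077195-159079003 (Rnor6), encodes Kv1.5, a delayed rectifier of arterial muscle. It was measured at 4.84, 2.73 and 0.885 CPM in lesions 1 to 3 and 7.55, 5.96 and 10.6 CPM in circles 1 to 3. All lesions were below all circles, with the largest gap in animal 3, where the log2 ratio was -3.54 against -0.64 and -1.12 in animals 1 and 2. The mean was -1.77 (SE 0.90), and the adjusted p was 0.249 in edgeR and 0.042 in DESeq2.

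Kcne4, a small auxiliary subunit of voltage-gated channels, was at 2.72, 5.12 and 2.36 CPM in the lesions and 5.41, 8.71 and 7.21 CPM in the circles, without overlap. Its log2 ratios were -0.99, -0.76 and -1.60, with a mean of -1.12 (SE 0.25) and an adjusted p of 0.191 in edgeR and 0.015 in DESeq2. Kcnq1 and Kcnq5, slowly opening voltage-gated subunits, had mean log2 ratios of 0.43 and 0.72, and Kcnq5 was above its circle in each animal.

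Kcnj2, the Kir2.1 channel through which arteries respond to raised potassium, was at 0.886, 2.05 and 1.86 CPM in the lesions and 2.49, 3.55 and 3.49 CPM in the circles. The groups did not overlap, and the mean log2 ratio was -1.05 (SE 0.21, adjusted p = 0.208 in edgeR and 0.073 in DESeq2). Kcnj12, its relative Kir2.2, had log2 ratios of -0.26, -0.19 and -2.40, so its mean of -0.95 came mostly from animal 3. Kcnj8, the Kir6.1 pore of the vascular ATP-sensitive channel, was at 10.2, 11.2 and 10.1 CPM in the lesions and 12.4, 13.3 and 6.70 CPM in the circles, with a mean log2 ratio of 0.02. Abcc9, the sulphonylurea receptor of that channel, had a mean log2 ratio of -0.26.

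Kcnma1, the pore of the large-conductance calcium-activated (BK) channel, was at 10.3, 5.14 and 1.77 CPM in the lesions and 12.2, 10.3 and 25.1 CPM in the circles. Each lesion was below its own circle, with log2 ratios of -0.24, -1.0 and -3.80, and the groups were not apart, since lesion 1 and circle 2 had the same value to 3 digits. Kcnmb1, the beta1 subunit that raises its calcium sensitivity in smooth muscle, was at 16.1, 42.4 and 33.0 CPM in the lesions and 18.2, 10.7 and 69.4 CPM in the circles, with log2 ratios of -0.18, 1.98 and -1.07. The 2 subunits of this channel therefore had opposite signs in animal 2. Kcnmb1 lies inside Kcnip1 on the opposite strand, a gene with 266 counts in all against 12973 for Kcnmb1.

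Kcnk3, the tandem-pore channel TASK-1, was at 17.0, 3.17 and 2.87 CPM in the lesions and 18.7, 9.52 and 28.3 CPM in the circles. Its log2 ratios of -0.14, -1.58 and -3.29 averaged -1.67 (SE 0.91), with an adjusted p of 0.254 in edgeR and 0.034 in DESeq2. Kcnab1, a Kv beta subunit, had log2 ratios of 0.27, -0.87 and -3.16, and Kcns3, a silent Kv subunit, of 0.97, 0.46 and -1.20.

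The median log2 ratio of the 13 smooth muscle markers was -0.19, 0.31 and -2.43 in animals 1, 2 and 3. Set beside that median within each animal, Kcna5 and Kcnma1 were below it in all 3 animals. Kcnmb1, Kcnq1, Kcnq5 and Kcns3 were above it in all 3. The gap was small in animal 1 for Kcnma1 and Kcnmb1. Single markers ran from -0.92 to 0.07, from -1.14 to 2.15 and from -3.77 to -1.03 in animals 1, 2 and 3. Kcna5 and Kcnmb1 lay within these ranges in each animal. Kcnma1 did in animals 1 and 2, Kcns3 in animals 2 and 3, and Kcnq1 and Kcnq5 in animal 2 only. The medians of the 14 differences were -0.06, -1.09 and 0.86, so the channels were lower than the muscle markers in animal 2 and less low than they were in animal 3. The part of the smooth muscle RNA in the channel ratios was not tested. The 7 members of the class not also known from neurons had a median of the means of 0.024, and the 7 that neurons also use had one of -1.14. In animals 1, 2 and 3 the medians of the former were -0.28, -0.24 and -1.20, all below 0. Those of the latter were -0.24, -0.87 and -2.40. Over 1.5-fold lower in all 3 animals were 3 of the former and 2 of the latter, against 5.51% of all genes.

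**Figure D3:**
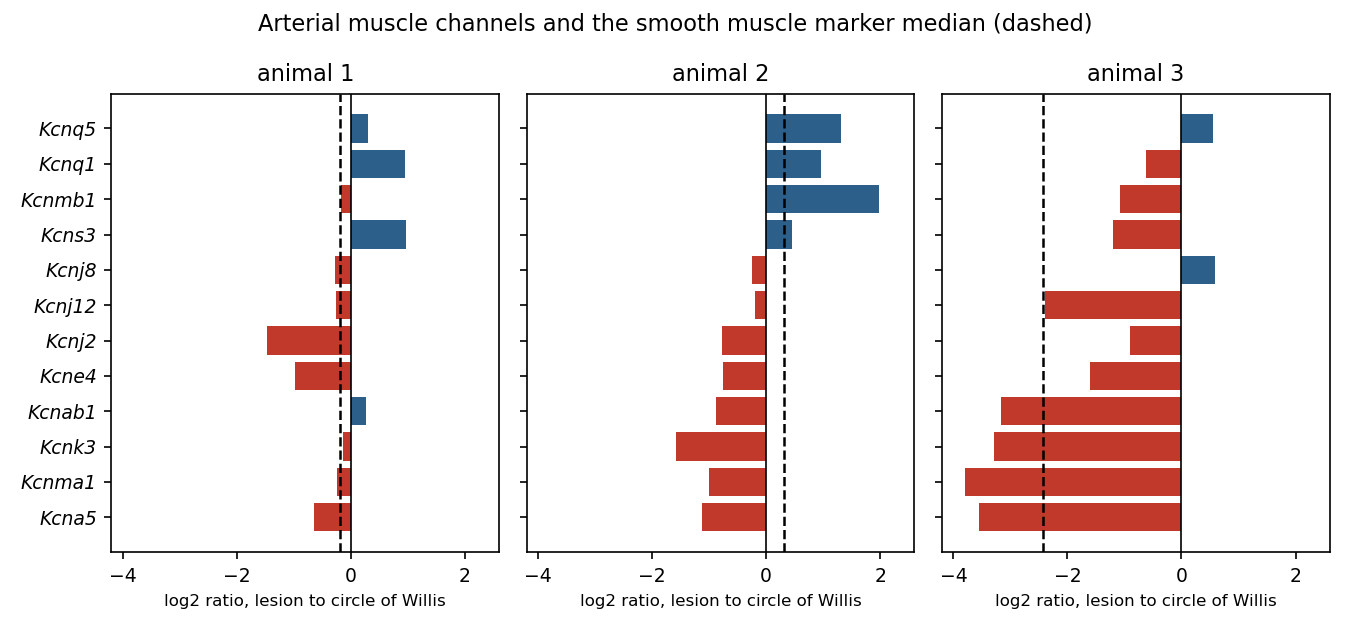
Log2 ratio of lesion to circle of Willis for 12 arterial muscle members in each of the 3 animals, with bars in red below 0 and blue above and a dashed line at the median of the smooth muscle markers. In animal 3, 10 of the 12 were below 0 and the marker median was -2.43.

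Among the 5 members best known from endothelium or immune cells, the median log2 ratio was 0.07, 1.53 and 0.70 in animals 1, 2 and 3, and their summed level was 31.7, 63.9 and 70.9 TPM in the lesions against 31.4, 26.1 and 32.2 TPM in the circles. Kcnn4, the intermediate-conductance calcium-activated channel of endothelium, T cells and macrophages, was at 17.7, 52.6 and 47.8 CPM in the lesions and 15.8, 9.40 and 17.5 CPM in the circles. Lesions 2 and 3 stood well above every circle, and lesion 1 lay just above circle 3. The mean log2 ratio was 1.36 (SE 0.67), with an adjusted p of 0.229 in edgeR and 0.022 in DESeq2.

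Kcnk13, a tandem-pore channel known from microglia, was at 5.19, 6.11 and 17.5 CPM in the lesions and 5.13, 2.09 and 4.64 CPM in the circles, so that lesion 3 was high and lesion 1 matched its circle. Kcna3, the Kv1.3 channel of T cells and macrophages, was at 0.412, 3.25 and 1.71 CPM against 0.973, 0.421 and 1.08 CPM, with opposite signs between animals. Kcnk6 was at 28.1, 25.5 and 37.9 CPM against 25.0, 25.6 and 23.2 CPM. Kcnn3, a small-conductance channel of endothelium and neurons, had log2 ratios of 0.07, -0.18 and -1.84. Its mean of -0.65 came mostly from animal 3. The 8 macrophage markers had median log2 ratios of -0.06, 1.25 and 1.46 and the 8 endothelial markers tested of -0.07, -1.22 and -0.37, and the part of either cell type in these values was not tested.

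**Figure D4:**
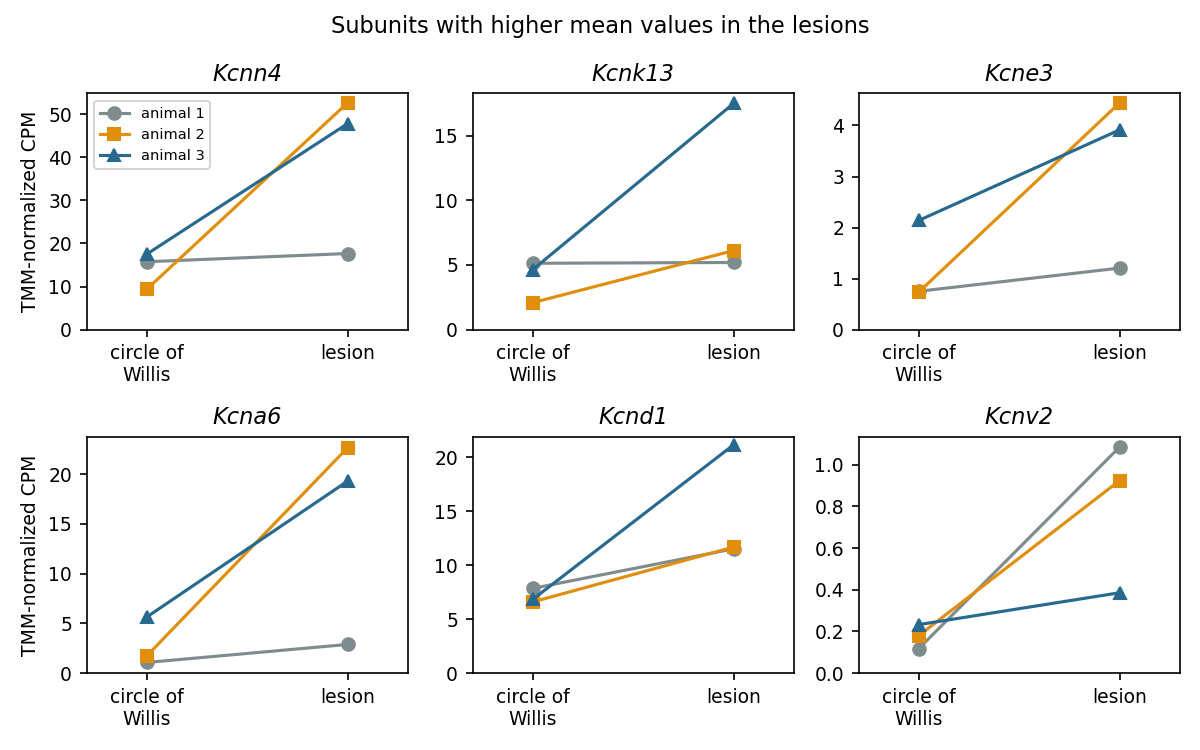
CPM of the 5 members that were higher in the lesions at an unadjusted p under 0.05, and of Kcnk13, for each lesion and its own circle of Willis, with lines joining libraries of 1 animal. Kcna6 was 2.89, 22.6 and 19.3 CPM in the lesions and 1.08, 1.74 and 5.65 CPM in the circles.

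Kcna6, the Kv1.6 channel of nervous tissue, had the highest mean log2 ratio of any member tested, 2.28 (SE 0.71). Its ratios were 1.40, 3.68 and 1.77, with an adjusted p of 0.185 in edgeR and 0.000202 in DESeq2. They were above the median of the neuron markers by 1.21, 4.41 and 5.91 in animals 1, 2 and 3. The part of neural tissue in the values of Kcna6 was not tested. Lesions 2 and 3 were far above all circles, and lesion 1 was below circle 3. Kcnd1, a Kv4 channel, was at 11.5, 11.7 and 21.2 CPM in the lesions and 7.86, 6.60 and 6.84 CPM in the circles, without overlap and with a mean of 1.00 (SE 0.32) and an adjusted p of 0.201 in edgeR and 0.020 in DESeq2. Kcne3, an auxiliary subunit, was at 1.21, 4.44 and 3.91 CPM against 0.752, 0.737 and 2.14 CPM, with lesion 1 below circle 3. Kcnv2, a silent subunit, was at 1.08, 0.923 and 0.386 CPM against 0.118, 0.180 and 0.233 CPM, a separation at very low levels.

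The neural class held 43 members, of which 36 were tested. Their median log2 ratio was 0.06, 0.37 and -1.15 in animals 1, 2 and 3, and 28 of the 36 were below 0 in animal 3 against 16 and 14 in animals 1 and 2. Circle 3 had the highest value of 24 of the 43 members, and the median of the means, -0.14, became 0.25 without animal 3. The 14 neuron markers summed to 113 TPM in circle 3 and to 15.3 to 71.3 TPM in the others, with a median log2 ratio of -4.14 in animal 3. Within animal 3 the neural channels were above that median by 2.99 at their own median. The median of all genes tested in animal 3, -0.04, was above it too. The part of neural tissue in these values was not tested.

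Kcnf1, a silent Kv subunit, was counted 0, 5 and 15 times in lesions 1, 2 and 3, against 5, 53 and 184 times in circles 1, 2 and 3, each lesion below its own circle. Its mean log2 ratio was -2.76 (SE 0.50), with an adjusted p of 0.174 in edgeR and 0.00154 in DESeq2. Kcnc4, the Kv3.4 channel, was at 0.626, 0.513 and 0.328 CPM in the lesions and 2.33, 1.74 and 4.69 CPM in the circles, without overlap, and its mean log2 ratio was -2.43 (SE 0.65, adjusted p = 0.185 in edgeR and 0.00216 in DESeq2).

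Set beside the neuron marker median of the same animal, 14 of the 36 tested neural members were above it in all 3 animals. Only 1 was below it in all 3, and the others differed between animals. That marker median was 0.19, -0.74 and -4.14 in animals 1, 2 and 3, and the median of all genes tested was 0, -0.05 and -0.04. The middle of all genes was thus also above it in animals 2 and 3. No share of all genes was taken for these counts, so they do not set neural members apart. Kcna2, the Kv1.2 channel, was at 19.1, 14.5 and 17.1 CPM in the lesions and 27.4, 20.2 and 31.6 CPM in the circles, all lesions below all circles, with close ratios of -0.52, -0.48 and -0.89 and a mean of -0.63 (SE 0.13, adjusted p = 0.194 in edgeR and 0.052 in DESeq2). Kcnab3, a Kv beta subunit, was at 21.0, 10.7 and 4.56 CPM against 28.5, 29.8 and 12.2 CPM and was lowest, not highest, in circle 3 among the circles, with a mean log2 ratio of -1.11 (SE 0.33, adjusted p = 0.188 in edgeR and 0.00905 in DESeq2). Kcnn1 was lower and Kcnj9 higher in all lesions than in any circle, with means of -0.59 and 0.46.

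**Figure D5:**
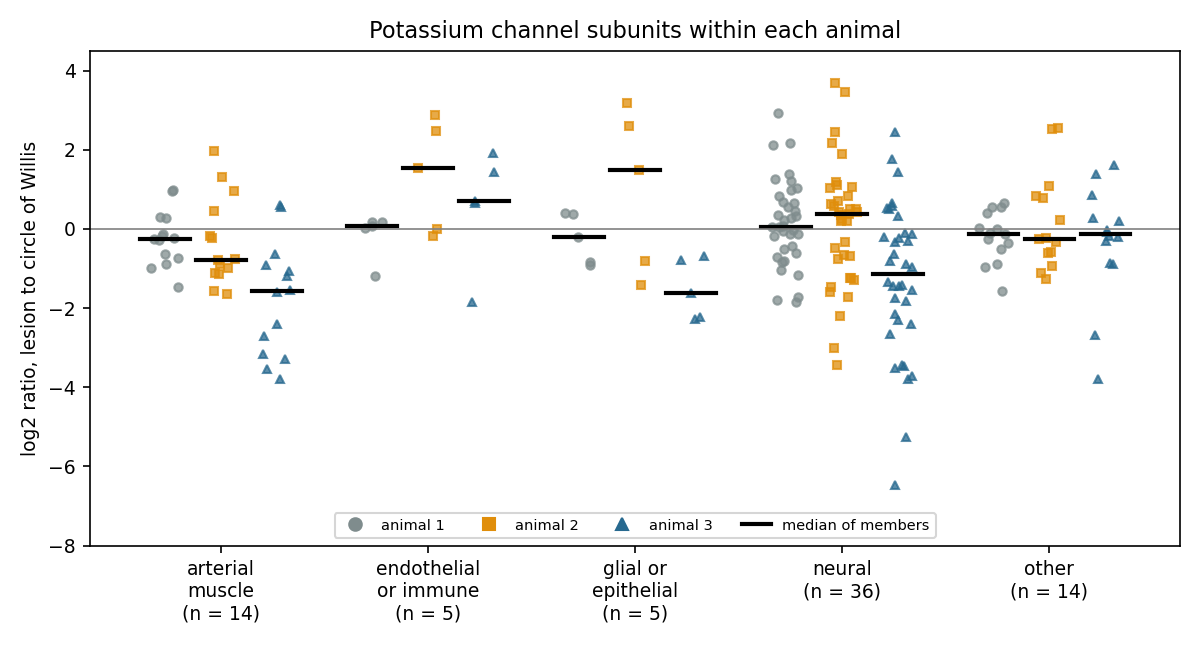
Log2 ratio of lesion to circle of Willis of each tested member (points) by class and animal, with black lines for the median of the members. The neural members centred on 0.06, 0.37 and -1.15 in animals 1, 2 and 3, and the endothelial or immune members on 0.07, 1.53 and 0.70.

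Of the other 4 members known from glia or epithelia, Kcne2, Kcnk1 and Kcnj10 were highest in lesion 2. Kcne2, a subunit of choroid plexus channels, was at 22.9 CPM there and at 1.33 to 4.10 CPM in the other 5 libraries. Kcnk1 was at 8.35 CPM against 1.35 to 3.30 CPM, and Kcnj10, the Kir4.1 channel of glia, at 3.66 CPM against 0.260 to 1.85 CPM. Kcnj16, Kir5.1, was at 6.66, 10.2 and 6.67 CPM in the lesions and 7.74, 17.9 and 10.7 CPM in the circles, each lesion below its own circle, and was highest in circle 2. The choroid plexus and oligodendrocyte markers were also highest in lesion 2, and their part in the values of Kcne2, Kcnk1 and Kcnj10 was not tested.

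At the count minimum, Kcng3 with 21 counts and Kcnj1 and Kcnb2 with 23 each were just inside, and Kcnj6 with 16 and Kcnh8 with 13 were just outside. Kcnk9, a neuronal tandem-pore channel, was counted 0, 1 and 0 times in the lesions, against 4, 10 and 70 times in the circles, and lies inside Trappc9 on the same strand. Kcnj3 had 0, 3 and 0 counts against 7, 9 and 22, and Kcnb2 had 0, 2 and 2 against 2, 5 and 12. Circle 3 was highest for all 3 genes.

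A list of calcium and depolarizing channels, with calcium pumps and other calcium-handling genes, was read beside the potassium channels. Of 28 tested, edgeR gave an unadjusted p below 0.05 for 1 on the higher side and 5 on the lower side, and none passed adjustment. These were 3.57 and 17.9% of the list, against 8.63 and 12% of all genes. Ano1, the calcium-activated chloride channel, had a mean log2 ratio of 0.70 (SE 0.24). The lower ones were Cacnb2, a calcium channel beta subunit, at -1.19, the ryanodine receptors Ryr1 and Ryr3 at -1.41 and -1.77, and the inositol trisphosphate receptors Itpr1 and Itpr2 at -1.02 and -1.16. Of 7 channel partner proteins tested, only 1 had an unadjusted p under 0.05 in edgeR, on the lower side, where 12% of all genes did. It was Amigo1, a membrane protein that joins voltage-gated channels, with a mean log2 ratio of -1.13 (SE 0.30, adjusted p = 0.181 in edgeR).

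Promoter windows from RefSeq (GRCr8, 250 bases before to 50 after the start) were found for 53 of the 84 members. They are shown for Kcna5 and Kcnj13, which were lower in every lesion, and for Kcnmb1, which was not. Capitals mark a TATA box (TATAAA) or an MCAT element (CATTCC, or GGAATG on the other strand). The CArG box, the site of serum response factor, was also searched. Every motif was searched on both strands, in members and in all windows.
Kcna5, chr4:161043760-161044059, minus strand: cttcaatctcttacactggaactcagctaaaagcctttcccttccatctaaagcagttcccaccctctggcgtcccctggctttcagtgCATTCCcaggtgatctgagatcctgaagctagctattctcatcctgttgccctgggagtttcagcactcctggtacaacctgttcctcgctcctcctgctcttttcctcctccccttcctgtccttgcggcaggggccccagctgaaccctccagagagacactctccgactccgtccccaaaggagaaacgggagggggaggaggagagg
Kcnj13, chr9:95518937-95519236, minus strand: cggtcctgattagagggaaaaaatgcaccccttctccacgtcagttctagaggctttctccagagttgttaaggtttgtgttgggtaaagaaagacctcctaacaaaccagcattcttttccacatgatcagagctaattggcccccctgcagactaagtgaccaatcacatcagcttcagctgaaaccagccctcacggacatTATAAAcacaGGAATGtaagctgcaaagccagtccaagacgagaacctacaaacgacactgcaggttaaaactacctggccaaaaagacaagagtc
Kcnmb1, chr10:19061849-19062148, plus strand: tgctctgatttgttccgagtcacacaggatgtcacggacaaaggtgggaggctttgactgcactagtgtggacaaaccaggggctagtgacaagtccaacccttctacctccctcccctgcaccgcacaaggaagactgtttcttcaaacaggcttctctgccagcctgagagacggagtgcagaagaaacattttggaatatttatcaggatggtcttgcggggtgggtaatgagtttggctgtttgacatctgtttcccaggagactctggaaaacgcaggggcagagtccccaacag
The MCAT element was in 7 of the 53 genes, Kcna5 the only 1 of the 9 arterial muscle genes among them, and in 14.2% of all 33469 windows. TATAAA, on either strand and at any position, was in 2 genes, Kcnj1 and Kcnj13, and in 14.2% of all windows. No member window held a CArG box, which 1.64% of all windows did. GGGCGG, the GC box, was in 28 genes and in 33.1% of all windows. The 53 genes had 59 windows, and a gene with more than 1 could match in any of them. Counts of genes and shares of windows are therefore unlike units. These matches describe letters only.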

How the data were processed

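RNA was extracted by the authors with a fibrous tissue kit, made into stranded mRNA libraries and sequenced in pairs, and reads were mapped to Rnor6 in CLC genomics workbench. CASAVA is also named in the processing notes of the submitters. Raw counts per gene and TPM, scaled by gene length and library, were deposited by the authors. The study's methods name paraformaldehyde perfusion of the animals. The authors' RPKM, CPM and own comparisons (fold changes, p-values and adjusted p-values) were not used.

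The quasi-likelihood test of edgeR 4.0.16 (glmQLFTest after glmQLFit, R 4.3.3) was run on the counts, blocked by animal and scaled by TMM. filterByExpr kept 15367 genes, and p-values were adjusted by Benjamini-Hochberg over these. Log2 ratios within an animal used TMM-scaled CPM with a prior count of 2. Lesion and circle of an animal were paired by the labels, and their deviations from the group means correlated at 0.389, 0.3 and 0.0688 in animals 1 to 3 across genes. Scripts were tested on simulated data. Alternatives were no block, other scaling factors, no filter, DESeq2 (version 1.42.0), limma-voom (limma version 3.58.1), other folds, minimums and prior counts, and each animal left out. Members and lists were chosen with earlier results of these data known. All measured arterial muscle, endothelial or immune and glial or epithelial members were named, with those at an unadjusted p under 0.05 or over 1.5-fold the same way in all 3 animals, the most abundant of each family and those next to the count minimum, except a few members that are not reported here by name and enter only the counts and medians. Of 137 genes in 14 lists, 132 were found. A Kcnd2 entry was not analysed here, and Kcnn2 was counted in 2 entries. Depth was between 65823027 and 70705938 counts, and precision was set by the 3 animals.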

Additional observations from a re-analysis of the deposited data

How the results depend on the processing

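With DESeq2, 13 members passed an adjusted p under 0.05 where edgeR called 0, and at an unadjusted p it put 21 instead of 12 on the lower side. Without the replicate block, edgeR called 0 members after adjustment, and before adjustment 4 on the higher and 9 on the lower side, so the pairing changed no adjusted call. Leaving out each animal gave 1 to 7 members higher and 4 to 19 lower at an unadjusted p, and 3 to 10 over 1.5-fold higher and 14 to 28 over 1.5-fold lower in both remaining animals, fewer animals having to share the direction. At a fold of 2, 1 member was higher and 6 lower in all 3 animals, instead of 3 and 12 of all 84. Shares of all genes were not taken for the unadjusted DESeq2 count, without the block, with an animal left out or at a fold of 2. These counts therefore cannot be set beside those of all genes. The arterial muscle median was -1.08, and -1.24 to -0.46 with each animal left out. Over only the members not also known from neurons it was 0.024, although their median within each animal was below 0. The neural median was -0.14, and -0.54 to 0.25 with each animal left out. The mean log2 ratio of 8 of the 36 named members changed sign under at least 1 alternative, 13 of 216 in all and 9 of these by leaving out an animal. Without animal 2, Kcna3 went to -0.26, Kcne2 to -0.61, Kcnk1 to -0.21, Kcnmb1 to -0.62, Kcns3 to -0.11 and Kcnt1 to 0.12, without animal 3 Kcnj10 to 0.28 and Kcnj8 to -0.26, and without animal 1 Kcns3 to -0.37. The number of animals, 3, and the high markers of neighbouring tissue in lesion 2 and circle 3 limit these results.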
